A study of Arabidopsis thaliana with 8 samples.

Results

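The genes described here are 10 loci of Arabidopsis thaliana that encode myrosinases, beta-glucosidases of the ER body, and proteins that build the ER body or its enzyme complex. They are TGG1 (AT5G26000), TGG2 (AT5G25980), PEN2 (AT2G44490), PYK10 (AT3G09260), BGLU18 (AT1G52400), BGLU21 (AT1G66270), BGLU22 (AT1G66280), NAI1 (AT2G22770), NAI2 (AT3G15950) and JAL23 (AT2G39330). They were taken by locus from the 25426 loci with a probe on the array. All 10 passed the filter on dim probes, as did 20629 loci in all. The set was selected on measured values, the levels of these genes in the 4 groups of these arrays, so its levels and differences are given as a description, with no test.

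Plants of the cabbage family store glucosinolates, sulfur-containing glucosides, apart from the enzymes that cleave them. Wounding brings both together, and a myrosinase, a kind of beta-glucosidase, removes the glucose so that the remainder breaks down to isothiocyanates, nitriles and related toxic products. TGG1 and TGG2 are the classical myrosinases, kept in the vacuoles of myrosin cells and guard cells of the shoot. ER bodies are spindle-shaped compartments of the endoplasmic reticulum that hold beta-glucosidases in large amounts, chiefly in seedlings and roots. In rosette leaves they are known to form mostly after wounding or jasmonate treatment.

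All plants were of the ecotype Columbia-0, grown on GM medium plates at 22 °C with 16 h of light after 3 days in the cold, and the labels name no transgene, mutation or treatment. Total RNA came from 4 groups with 2 biological replicates each. These are whole plants 2 days after germination, the aerial part 21 days after germination, and, from 21-day plants, the newest 3 leaves (young) and the oldest 3 leaves other than cotyledons (mature). Each RNA was labelled with Cy3 and hybridised to 1 one-colour Agilent array. The labels do not say how many plants were pooled in a sample.

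A level is the log2 processed signal of a gene's brightest probe minus the 75th percentile of its array, so that 0 is that percentile and each unit is a factor of 2. Levels of the same gene can be set against each other between arrays, but not levels of different genes, since every probe has its own brightness. A difference between groups is said to be beyond the spread when the pairs of arrays do not overlap and the gap between them exceeds the wider pair. From 66.7% to 74.6% of non-control probes were well above background, replicates correlated across genes at 0.994 to 0.996, and no spot was saturated. A summed level of 10 root markers, in multiples of the 75th percentile, was 9.88 to 9.97 at 2 days, 0.0610 to 0.0822 in the aerial part, 0.0863 to 0.0897 in young leaves and 0.0499 to 0.0508 in mature leaves. On both arrays of the aerial part 8 of these markers were below the mark for well above background. The 2-day samples include roots and the others do not, so age and organ differ together and cannot be told apart. In these bulk samples, fewer cells of a type and less RNA per cell cannot be told apart either.

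The classical myrosinase TGG1 had levels of 3.33 and 3.58 in the 2-day plants, 5.996 and 5.92 in the aerial part, 6.43 and 6.36 in young leaves, and 4.91 and 4.99 in mature leaves. No pair of groups overlapped, and the order was young leaves, aerial part, mature leaves, 2-day plants, with every step beyond the spread. The aerial part stood 2.50 ± 0.10 above the 2-day plants on the log2 scale (SE of the fit, n = 2 arrays per group here and throughout), a 5.66-fold difference. Mature leaves stood at -1.45 ± 0.10 against young leaves, 2.73-fold lower. The 3 probes of TGG1 gave 2.50 to 2.89 for the first difference and -1.94 to -1.45 for the second.

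TGG2, the second classical myrosinase, had levels of -0.12 and -0.05 at 2 days, 5.17 and 5.16 in the aerial part, 5.90 and 5.78 in young leaves, and 1.42 and 1.71 in mature leaves. The order of the groups was that of TGG1, again with every step beyond the spread. The differences were wider. The aerial part was 38.1-fold above the 2-day plants (5.25 ± 0.11), and mature leaves were 19.3-fold below young leaves (-4.27 ± 0.11). The mature leaves still stood 3.14-fold above the 2-day plants for TGG2 and 2.81-fold for TGG1. In the gene table of assembly TAIR10.1 the pair lies on chromosome 5 with 2 genes between them. Their sequences are alike, TGG2 has 1 probe on the array, and shared signal between them was not tested.

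PEN2 is an atypical myrosinase that acts inside living leaf cells on indole glucosinolates during defence against fungi. Its levels were 2.55 and 2.38 at 2 days, 3.31 and 3.51 in the aerial part, 3.09 and 3.39 in young leaves, and 3.86 and 4.06 in mature leaves. Mature leaves were highest and the 2-day plants lowest, while the aerial part and young leaves overlapped. PEN2 in the aerial part was 1.93-fold above the 2-day plants (0.95 ± 0.14) and mature leaves 1.64-fold above young leaves (0.71 ± 0.14). The whole range of its group means, 1.49 on the log2 scale, was narrower than that of any other gene of the 10, and the next, TGG1, spanned 2.94. With the arrays scaled on spike-in probes the leaf difference of PEN2 was -0.20.

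**Figure D1:**
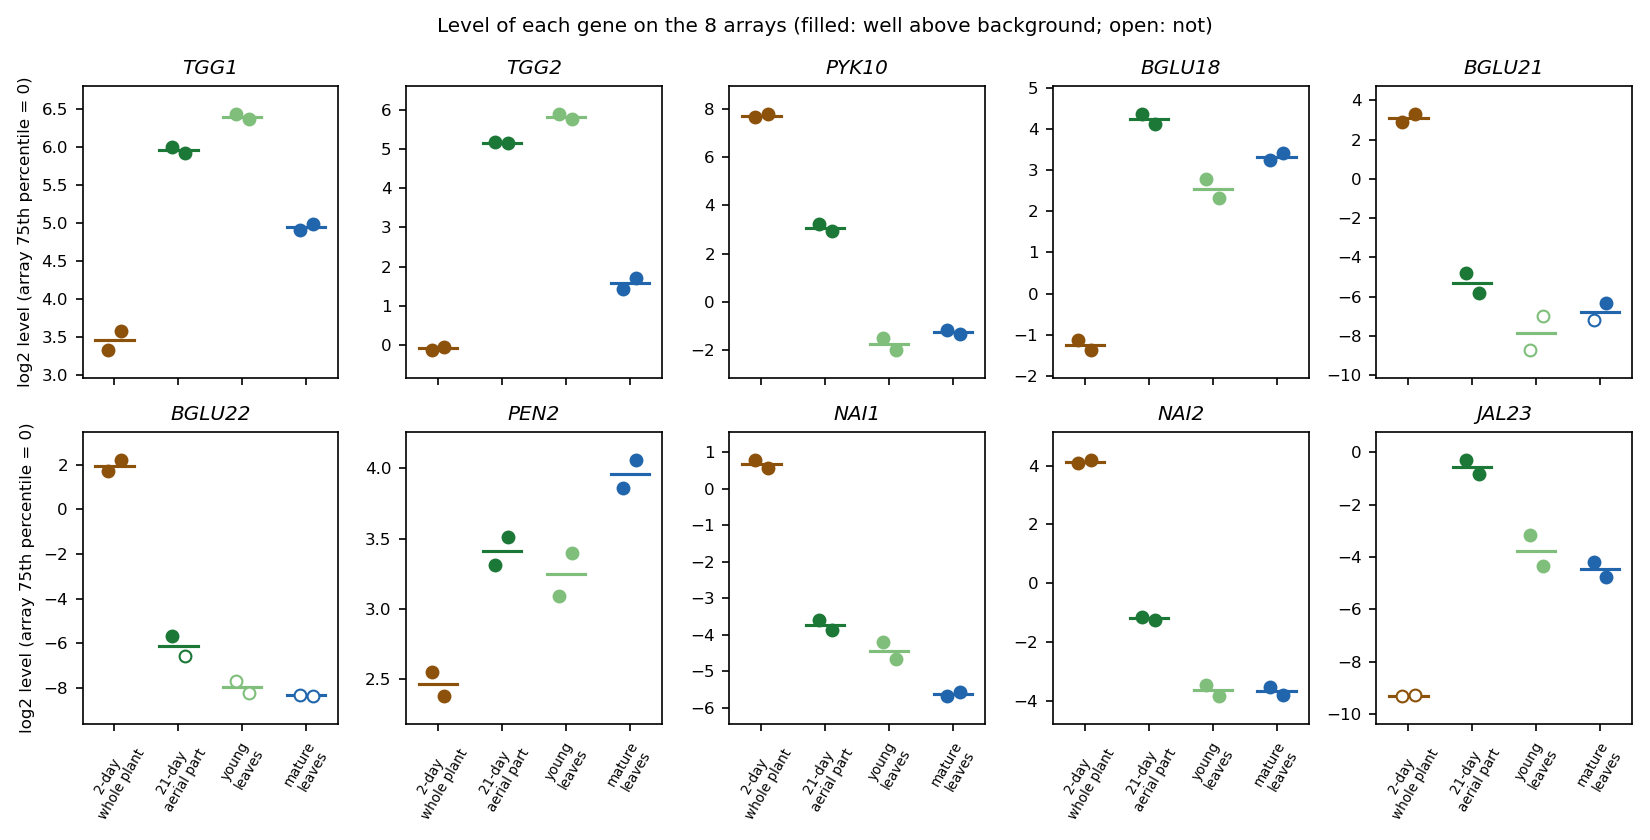
Log2 level of each of the 10 genes on each of the 8 arrays, relative to the 75th percentile of the array, with 1 panel and 1 vertical scale per gene. Points are arrays, filled where the probe was well above background and open where it was not, and bars are means of 2 arrays. TGG1 and TGG2 are lowest at 2 days and highest in young leaves, PYK10, BGLU21, BGLU22, NAI1 and NAI2 are highest at 2 days, and BGLU18 and JAL23 are highest in the aerial part.

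PYK10 (BGLU23) is the main beta-glucosidase of ER bodies in seedlings and roots and can cleave indole glucosinolates. Its levels were 7.66 and 7.79 at 2 days, 3.23 and 2.93 in the aerial part, -1.48 and -1.98 in young leaves, and -1.18 and -1.34 in mature leaves. The 2-day plants were far above the rest. On the log2 scale, though not in amount, the aerial part lay about midway between them and the leaves. Its level in the aerial part was 24.98-fold below that of the 2-day plants (-4.64 ± 0.19). It was nevertheless 28.1-fold above young leaves and 20.2-fold above mature leaves. The leaf classes did not overlap, but their difference of 0.47 ± 0.19 was not beyond the spread, and with spike-in scaling it was -0.43. All 7 probes of PYK10 gave a like picture for the aerial part against the 2-day plants, at -5.40 to -4.64. The 6 probes detected in leaves gave 4.57 to 4.90 for the aerial part against young leaves and 0.26 to 0.56 for mature against young leaves. The dimmest probe was undetected on all 4 leaf arrays.

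BGLU21 and BGLU22 are closely related ER-body enzymes of the root that hydrolyse scopolin, the glucoside of the coumarin scopoletin. BGLU21 had levels of 2.89 and 3.29 at 2 days, -4.80 and -5.84 in the aerial part, -8.70 and -6.99 in young leaves, and -7.19 and -6.34 in mature leaves. It was well above background on all 4 arrays of the 2-day plants and the aerial part, on 1 of 2 of mature leaves and on 0 of 2 of young leaves. The aerial part was 339-fold below the 2-day plants (-8.41 ± 0.65), and young leaves were at least 1045-fold below them. A bound of this kind sets the brighter group's mean against the dimmest levels that passed this mark in the dimmer group. It is not a strict limit, since a probe brighter than that can still miss the mark. On aerial replicate 2, for example, BGLU22 missed it at -6.56, while the dimmest level that passed was -7.00. Each fold given as at least therefore holds only if the undetected gene lay no higher than that dimmest level. BGLU22 had 1.72 and 2.19 at 2 days, -5.66 and -6.56 in the aerial part, -7.70 and -8.24 in young leaves, and -8.31 and -8.35 in mature leaves. Outside the 2-day plants only 1 array, from the aerial part, was well above background for BGLU22. The aerial part was 268-fold below the 2-day plants (-8.07 ± 0.34), young leaves at least 476-fold and mature leaves at least 329.7-fold.

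The replicates of BGLU21 and BGLU22 lay farther apart at these low signals, by 1.04 and 0.89 in the aerial part, than those of the other genes there. Mature against young leaves gave 1.08 ± 0.65 for BGLU21, within the spread, and no fold for BGLU22, which was not well above background on any leaf array. The loci are adjacent on chromosome 1. A second probe for another transcript of BGLU21 was well above background only at 2 days and gave -2.81. With normexp background correction, which raises dim signals, the aerial part against the 2-day plants was -5.61 for BGLU21 and -5.32 for BGLU22.

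BGLU18 is an ER-body beta-glucosidase of leaves and cotyledons, known for its rise after wounding and for releasing abscisic acid from its glucose ester. It had levels of -1.12 and -1.36 at 2 days, 4.35 and 4.12 in the aerial part, 2.77 and 2.33 in young leaves, and 3.25 and 3.41 in mature leaves. Its order was aerial part, mature leaves, young leaves, 2-day plants, with every step beyond the spread. BGLU18 in the aerial part was 44.5-fold above the 2-day plants (5.48 ± 0.18), 3.22-fold above young leaves and 1.88-fold above mature leaves. Mature leaves were 1.71-fold above young leaves (0.78 ± 0.18), a difference that turned to -0.13 with spike-in scaling. The 3 probes gave 5.42 to 5.52 and 0.61 to 0.78. At 2 days PYK10 was at its highest and BGLU18 at its lowest, while both were higher in the aerial part than in either leaf class.

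NAI1 is the bHLH transcription factor that is needed for ER bodies and for PYK10 expression in seedlings. It had levels of 0.77 and 0.57 at 2 days, -3.60 and -3.86 in the aerial part, -4.21 and -4.66 in young leaves, and -5.67 and -5.58 in mature leaves. Its level was highest at 2 days and lowest in mature leaves. NAI1 in the aerial part was 21.1-fold below the 2-day plants (-4.40 ± 0.18). It was 0.70 above young leaves on the log2 scale, not beyond the spread, and 3.71-fold above mature leaves, a difference of 1.89 that shrank to 0.23 with normexp. Mature leaves were 2.28-fold below young leaves (-1.19 ± 0.18), and this difference turned to 0.17 with normexp.

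NAI2, the ER-body protein without which the bodies do not form in seedlings, had levels of 4.08 and 4.18 at 2 days, -1.15 and -1.24 in the aerial part, -3.46 and -3.82 in young leaves, and -3.52 and -3.78 in mature leaves. The aerial part lay between the 2-day plants and the leaves, and the leaf classes overlapped. It was 39.9-fold below the 2-day plants (-5.32 ± 0.15), and 5.45-fold above young and 5.50-fold above mature leaves. The leaf difference was -0.01 ± 0.15, with -0.92 under spike-in scaling and 0.38 as the extremes over the alternatives. The second NAI2 probe gave -5.14 for the aerial part against the 2-day plants.

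JAL23 is a jacalin-related lectin of the complex that PYK10 forms when tissue is crushed. It had levels of -0.31 and -0.84 in the aerial part, -3.16 and -4.35 in young leaves, and -4.19 and -4.76 in mature leaves. At 2 days it was at -9.31 and -9.29, undetected on both arrays. Unlike PYK10, NAI1 and NAI2, it was thus highest in the aerial part, at least 94.5-fold above the 2-day plants. Young and mature leaves were also above the 2-day plants, at least 10.4-fold and at least 6.32-fold. The aerial part was 9.05-fold above young and 15.0-fold above mature leaves, while the leaf classes overlapped (-0.72 ± 0.42). A second, dimmer probe was well above background only in the aerial part, so it gives no measured differences. With normexp the aerial part stood 3.78 above the 2-day plants on the log2 scale, under the bound given above.

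Set side by side, TGG1, TGG2, PEN2, BGLU18 and JAL23 were beyond the spread above the 2-day plants in the aerial part, 5 of 10, as were 33.8% of all genes tested. PYK10, BGLU21, BGLU22, NAI1 and NAI2 were beyond it below, again 5 of 10, with 39.4% of all genes. Of these, BGLU22 passed the filter on dim probes only through the 2-day plants, so its side was largely set by that filter. No other direction occurred, and the directions held under all alternatives run for these genes. Between the leaf classes, BGLU18 and PEN2 were beyond the spread higher in mature leaves (2 of 10, all genes 36.7%), TGG1, TGG2 and NAI1 were lower (3 of 10, all genes 35.6%), and 5 were within the spread. The directions of TGG1 and TGG2 between leaf classes held under every alternative, at -2.36 to -1.19 and -5.18 to -4.01, while those of BGLU18, PEN2 and NAI1 each turned under 1 alternative. By limma, 35.8% of all genes tested were called higher and 35.5% lower in mature than young leaves. Of 5 guard cell markers, 0 were called higher there, 2 lower (MYB60 and HT1) and 3 not called, with a median of -0.18. Their summed level, 25.1 to 27.2 in young and 32.6 to 34.4 in mature leaves, is mostly the bright probe of GC1, which was not called (0.42 ± 0.21, limma adjusted p = 0.113). Of 6 green tissue markers 4 were called higher and 2 were not called, and their summed level was 1682 to 1704 and 2387 to 2456. The part of these markers in the differences was not tested.

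**Figure D2:**
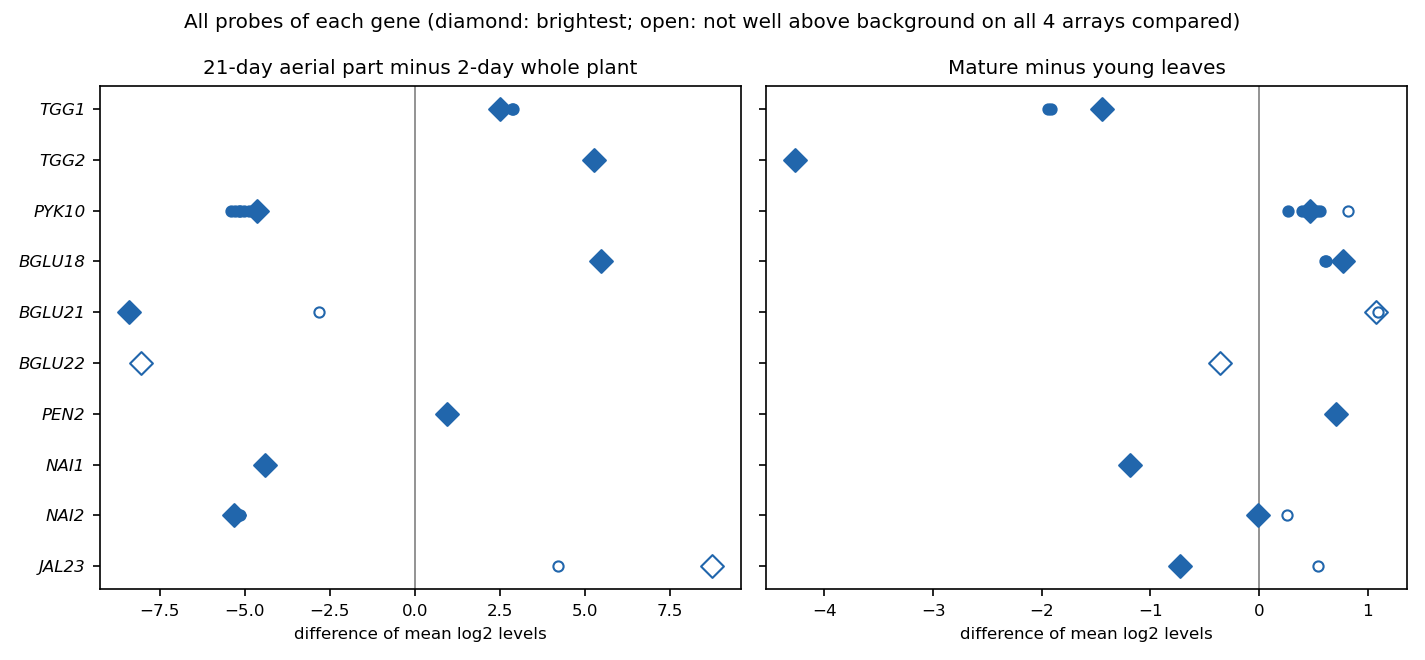
Difference of mean log2 levels for every probe of the 10 genes, 23 probes in all, on the left for the aerial part minus 2-day plants and on the right for mature minus young leaves. Diamonds are the brightest probe of a gene and open symbols are probes not well above background on all 4 arrays compared, drawn at their measured difference. On the left no gene has probes on both sides of 0, and the 7 probes of PYK10 lie between -5.40 and -4.64.

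A pattern that joins several of these genes is a higher level in the aerial part than in both leaf classes taken from plants of the same age. It was beyond the spread on both sides for PYK10, BGLU18, BGLU22, NAI2 and JAL23, 5 of 10, and for 5.17% of all genes tested. For BGLU22 the leaves give only bounds, at least 1.78-fold against young and at least 1.23-fold against mature leaves. TGG1 and TGG2 did not share the pattern: the aerial part lay between the leaf classes, 1.36-fold and 1.59-fold below young leaves, and 2.01-fold and 12.1-fold above mature leaves. PEN2 in the aerial part was 1.46-fold below mature leaves, a difference of -0.55 that turned to 0.19 with spike-in scaling. The aerial part and the leaves were hybridised on different slides, so slide and group cannot be told apart here. The same holds wherever leaves are set against the 2-day plants.

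The directions for PYK10, BGLU18, NAI2 and JAL23 held under all 5 scalings and background corrections compared. PYK10 kept 4.56 to 4.88 against young and 3.96 to 5.07 against mature leaves. With normexp, BGLU21 and BGLU22 stood at -0.23 and -0.45 against mature leaves. Among 14 other tested genes of ER bodies and the PYK10 complex, 10 were above both leaf classes by the same criterion on measured levels: TSA1, MEB1, JAL22, JAL30, JAL31, JAL32, JAL33, JAL34, GLL22 and GLL23. For 5 of these, at least 1 leaf class was undetected and gives only a bound. JAL22, JAL33 and GLL22 were at least 93.3-fold, 20.6-fold and 6.55-fold above mature leaves, and JAL31 at least 2.71-fold above young and 1.88-fold above mature leaves. JAL32, detected on 1 of 2 aerial arrays and on no leaf array, was at least 1.12-fold above young leaves and has no bound against mature leaves. Of the 10, only TSA1 was also compared with the leaves under the other scalings and normexp, and its direction held. The 5.17% of all genes was counted on measured levels too, undetected ones included. The remaining 4 were MEB2, GLL25, BGLU19 and BGLU25. The labels do not list which organs besides leaves the aerial part held.

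**Figure D3:**
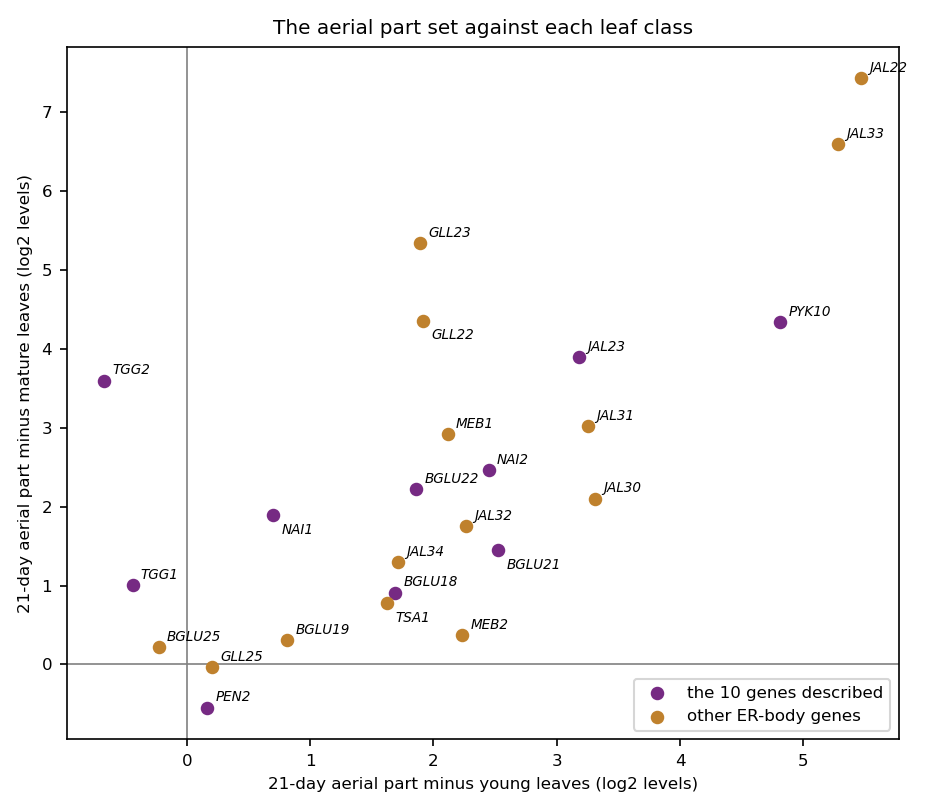
The aerial part minus young leaves (horizontal) against the aerial part minus mature leaves (vertical), as differences of mean log2 levels, for the 10 genes and 14 other genes of ER bodies and the PYK10 complex. Both axes share the aerial arrays, and genes not well above background in a group are drawn at their measured difference. PYK10 lies at 4.81 and 4.34, TGG1 and TGG2 are left of 0, and PEN2 is below 0.

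The other genes of these pathways were tested in the fit over all 20629 genes (limma, Benjamini-Hochberg adjusted p of 0.05 as the threshold), which called 75.1% of genes in the aerial part against the 2-day plants, 34.8% higher and 40.3% lower, with a median difference of -0.07. For mature against young leaves it called 71.3% of all genes, 35.8% higher and 35.5% lower, with a median of 0.04. The lists hold 101 genes, of which 84 were tested, 13 did not pass the detection filter and 4 had no probe matched by accession. In the lists together, 36 genes were higher and 38 lower in the aerial part, and 33 were higher and 26 lower in mature leaves.

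Of the 14 tested ER-body and PYK10-complex genes, 13 fell and 1 rose in the aerial part against the 2-day plants, with a median of -4.24. The falls include the lipase-like genes of the complex GLL22 (-6.81 ± 0.25) and GLL23 (-6.66 ± 0.25), and the lectin genes JAL34 (-5.13 ± 0.15), JAL31 (-5.04 ± 0.25), JAL30 (-4.42 ± 0.21) and JAL22 (-2.70 ± 0.50). BGLU19, an ER-type beta-glucosidase, was at least 2.27-fold lower, a call lost with normexp. BGLU19 and JAL32 passed the detection filter only through the 2-day plants, so their direction was largely set by that filter. The 1 gene that rose was TSA1, a relative of NAI2 and the neighbour of BGLU18 on chromosome 1. It stood at -1.39 and -1.16 at 2 days, 1.55 and 1.38 in the aerial part, 0.04 and -0.35 in young leaves, and 0.60 and 0.79 in mature leaves. Its difference of 2.74 ± 0.16 (limma adjusted p = 2.74e-05) had the sign of BGLU18, and its groups had the same order as those of BGLU18. JAL22 fell while JAL23, with 1 gene between them on chromosome 2, was at least 94.5-fold higher, and probes of such near copies can share signal.

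Between leaf classes the ER-body list split into 5 genes higher, 5 lower and 4 not called, with a median of 0.24, and 3 of the 14 were not well above background on any leaf array. TSA1 (0.85 ± 0.16) and JAL30 (1.21 ± 0.21) were higher in mature leaves, and GLL23 (-3.46 ± 0.25) and MEB1 (-0.80 ± 0.19), a membrane protein of ER bodies, were lower. JAL22 was at least 2.11-fold lower in mature leaves, a call lost with only the arrays compared and without young leaf replicate 1. BGLU19 was not well above background in either leaf class (limma adjusted p = 0.449). The counts depend on the scaling: 11 higher and 2 lower with normexp, and 1 higher and 9 lower with spike-in scaling. Leaving out any 1 leaf array left 3 genes higher.

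Of the other myrosinase copies, 3 were tested, and 1 rose and 2 fell in the aerial part. TGG4 and TGG5, the myrosinases known from roots, were lower in the aerial part, TGG4 by at least 41.0-fold and TGG5 with a difference of -10.04 ± 0.78. Both passed the detection filter only through the 2-day plants, so their direction was largely set by that filter. TGG5 was well above background on 1 of 2 aerial arrays, and both genes were below that mark on all leaf arrays, where neither was called (limma adjusted p = 0.0933 and 0.365), although both were called higher in mature leaves when either aerial array was left out. TGG3, regarded as a pseudogene in Columbia, had levels of -6.11 and -6.51 at 2 days, -3.38 on both arrays of the aerial part, -2.82 and -2.89 in young leaves, and -4.58 and -4.40 in mature leaves. It was 2.93 ± 0.14 higher in the aerial part and lower in mature than young leaves (-1.63 ± 0.14), an order of groups that matches TGG1 and TGG2. Signal shared with those copies was not tested. The median of the 3 tested genes was -6.93, or -5.36 with undetected genes at their bounds, for the aerial part, and 0.28 for mature leaves. The aerial part median is the value of TGG4 itself.

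Proteins that act on the products of myrosinases went both ways in the aerial part, with 6 higher, 6 lower and 2 not called of 14 and a median of -0.02. ESM1, which favours isothiocyanates, had levels of 1.53 and 2.29 at 2 days and 7.02 on both aerial arrays (5.11 ± 0.23), and ESP, the epithiospecifier protein that diverts products to epithionitriles and nitriles, differed by 4.07 ± 0.19. The myrosinase-binding protein gene MBP2 was 6.18 ± 0.29 higher and MBP1 at least 18.1-fold higher. The nitrile-specifier gene NSP1 (-3.84 ± 0.16) and the nitrilase gene NIT3 (-4.94 ± 0.14) were lower. NIT2 rose by 1.24 ± 0.26, and NIT1 was called at -0.64 ± 0.24 (limma adjusted p = 0.0494), a call lost in 10 alternatives, among them quantile normalization and leaving out either 2-day array, aerial replicate 2 or either young leaf array. NIT1, NIT2 and NIT3 are near copies and can share signal.

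In mature against young leaves this group gave 4 higher, 6 lower (10 with spike-in scaling) and 4 not called, and the median was -0.30 (-0.22 with bounds). ESP (-1.61 ± 0.19) and MBP2 (-2.70 ± 0.29) were lower, as TGG1 and TGG2 were. ESM1 was called lower at -0.69 ± 0.23 (limma adjusted p = 0.0346), and the call was lost with median scaling and on leaving out any 1 array of the aerial part, young leaves or mature leaves. NIT3 (-1.81 ± 0.14) was lower too, and NSP4 at least 11.6-fold lower. MBP1 (2.06 ± 0.23) and NIT4 (2.20 ± 0.07) were higher, and NIT2, not well above background in young leaves, was at least 52.1-fold higher. NSP1 and NIT1 were not called (-0.35 ± 0.16 and -0.17 ± 0.24, limma adjusted p = 0.0929 and 0.540).

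Among 8 genes acting with PEN2 in leaf defence, 5 were higher in mature than young leaves, 0 were lower and 3 were not called, with a median of 1.07. MYB51, a regulator of indole glucosinolate synthesis, differed by 1.97 ± 0.13, the methyltransferase genes IGMT2 and IGMT1 by 1.72 ± 0.22 and 0.93 ± 0.28, and the transporter gene PEN3 by 1.21 ± 0.34. IGMT1 and IGMT2 are near copies. The PEN3 call ended with spike-in scaling, without young leaf replicate 1 and without mature leaf replicate 2, and under each of these 3 of the 8 genes were higher. With spike-in scaling 3 were lower. In the aerial part against the 2-day plants the list gave 4 higher, 3 lower and 1 not called, with a median of 0.15. There IGMT1 (1.97 ± 0.28), PEN3 (1.03 ± 0.34) and GSTU13 (0.70 ± 0.07), a glutathione transferase gene, were higher and IGMT2 (-1.12 ± 0.22) was lower. Leaving out 2-day replicate 1, 2-day replicate 2 or aerial replicate 2 ended the PEN3 call there, as did spike-in scaling.

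The genes of coumarin synthesis, cleavage and export, which touch the substrate of BGLU21 and BGLU22, were all 6 lower in the aerial part than at 2 days, and their median was -3.34 (-2.57 with bounds). The exporter gene PDR9 differed by -5.57 ± 0.21, the synthesis gene COSY by -1.79 ± 0.06, BGLU42, a beta-glucosidase of root coumarin secretion, by -0.65 ± 0.20 and CCOAOMT1 by -0.50 ± 0.13. The feruloyl-CoA hydroxylase gene AT3G13610, which makes scopoletin precursors, was at least 26.5-fold lower. It and 1 other of the 6 genes passed the detection filter only through the 2-day plants, so their direction was largely set by that filter. Between leaf classes 1 of the 6 genes, BGLU42, was lower in mature leaves (-0.92 ± 0.20) and 5 were not called, while 2 were called higher when either aerial array was left out and 4 were called lower with spike-in scaling. The root markers moved with this list and with PYK10, BGLU21, BGLU22, NAI1 and NAI2 in the same comparison, and their part was not tested.

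Of 22 other beta-glucosidases of the family tested, 14 were higher, 5 lower and 3 not called in the aerial part, with a median of 0.99. BGLU33 was at least 386-fold higher, BGLU7 and BGLU8 were 2.46 ± 0.10 and 2.04 ± 0.11 higher, BGLU4 was at least 153.9-fold lower, and BGLU15 and BGLU46 differed by -3.52 ± 0.24 and -2.98 ± 0.11. BGLU4 and 1 other of the 5 lower genes passed the detection filter only through the 2-day plants, so their direction was largely set by that filter. BGLU30, known from dark-induced and senescing leaves, differed by 1.47 ± 0.55 and was not called (limma adjusted p = 0.0515). Between leaf classes 11 were higher, 7 lower and 4 not called, with a median of 0.44, against 6 higher and 11 lower with spike-in scaling. BGLU11 had levels of -4.75 and -5.05 in young and 1.39 and 1.04 in mature leaves, 69.1-fold higher (6.11 ± 0.19), and BGLU10 was 1.95 ± 0.12 higher. BGLU45 was at least 5.91-fold and BGLU30 at least 1.72-fold higher, the latter well above background on 1 of 2 arrays of mature leaves. BGLU28 (-2.85 ± 0.33) and BGLU43 (-1.48 ± 0.22) were lower and BGLU15 at least 13.8-fold lower, while BGLU33 was not called (limma adjusted p = 0.281).

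Myrosin cells, which hold TGG1 and TGG2, are specified by FAMA, a bHLH factor that also completes guard cells, with its partners ICE1 and SCRM2. FAMA rose by 1.74 ± 0.10 in the aerial part, with levels of -2.66 and -2.64 at 2 days and -0.97 and -0.84 in the aerial part. Its leaf levels, -0.58 and -0.52 in young and -0.88 and -0.64 in mature leaves, gave no call (-0.20 ± 0.10, limma adjusted p = 0.111), whereas ICE1 (-0.80 ± 0.09) and SCRM2 (-1.29 ± 0.07) were lower in mature leaves. The glucosinolate transporter gene GTR1 was not called in either comparison (limma adjusted p = 0.976 and 0.521). GTR2 was lower in the aerial part (-1.14 ± 0.11) and 0.64 ± 0.11 higher in mature leaves, where spike-in scaling gave -0.27. The vacuolar sorting receptor gene VSR1 rose by 0.22 ± 0.08 in the aerial part (limma adjusted p = 0.0451) and by 0.55 ± 0.08 in mature leaves. In all, 2 of 7 genes of this list were higher, 2 lower and 3 not called in both comparisons, with medians of 0.00 and -0.08. In the aerial part 1 was higher without 2-day replicate 2, without either aerial array and without either young leaf array, and in mature leaves spike-in scaling gave 0 higher and 6 lower. All 5 guard cell markers were called higher in the aerial part, as were 34.8% of all genes tested. Their median was 1.83, and they ran from MYB60 at 1.32-fold to GC1 at 26.9-fold. Their summed level, 1.55 to 2.08 at 2 days and 26.2 to 27.3 in the aerial part, is mostly that of GC1. All 6 green tissue markers were called higher, with sums of 1031 to 1174 and 1792 to 1819. The part of these markers in the TGG1 and TGG2 differences was not tested.

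Jasmonate is the hormone that raises BGLU18 and ER bodies in wounded leaves. Of 10 jasmonate genes tested, 8 were higher and 1 lower in the aerial part, with a median of 1.85, and 6 were higher and 4 lower in mature leaves, with a median of 0.54, where spike-in scaling left 2 higher. The storage protein genes VSP2 and VSP1 rose by 5.88 ± 0.17 and 5.96 ± 0.18 in the aerial part, LOX2 and AOC2 of jasmonate synthesis by 5.29 ± 0.38 and 2.12 ± 0.22, and JR2, undetected at 2 days, was at least 490-fold higher. Against young leaves, mature leaves had lower levels of VSP2 (-2.30 ± 0.17), VSP1 (-2.47 ± 0.18) and the repressor gene JAZ10 (-3.39 ± 0.18), and a higher level of JR2 (2.32 ± 0.30). VSP1 and VSP2 are near copies. BGLU18 was higher in mature leaves than in young except with spike-in scaling. The jasmonate genes went both ways there, 6 higher and 4 lower, with VSP1 and VSP2 among the lower. Their part in the BGLU18 difference was not tested.

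**Figure D4:**
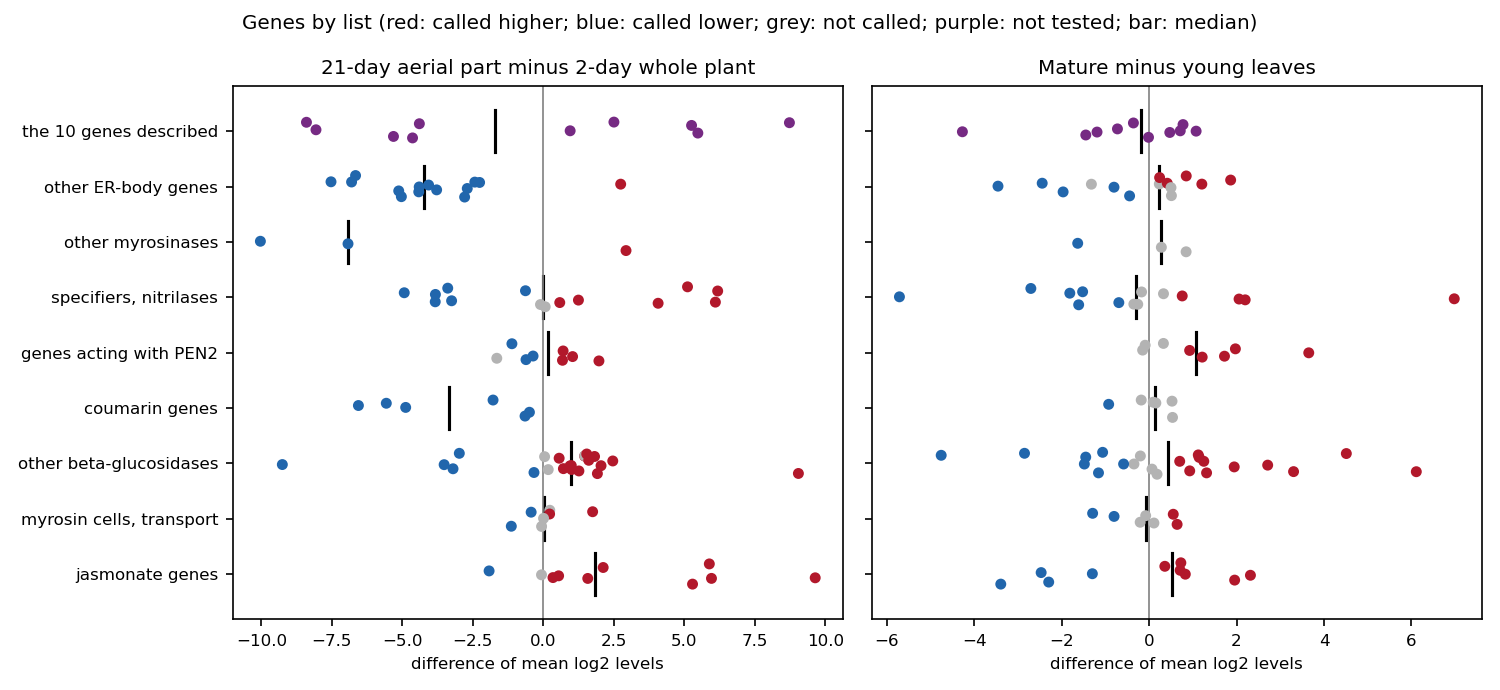
Differences of mean log2 levels of the 10 genes and of 8 lists of related genes, on the left for the aerial part minus 2-day plants and on the right for mature minus young leaves. Each point is a gene, red where limma called it higher, blue where lower and grey where it was not called. The 10 genes, which were not tested, are purple, and black bars are medians. The other ER-body genes have a median of -4.24 on the left, with TSA1 alone right of 0, and 0.24 on the right.

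The genes most like TGG1, PYK10 and BGLU18 were sought by the root mean square difference between the 4 group means, each gene centred on its own mean, among genes well above background on all 8 arrays whose groups spanned at least 0.5 times the range of the reference gene. For TGG1 the nearest of 6169 candidates were HIPP20 (0.058 on the log2 scale), AT5G04680 (0.077) and the aminotransferase gene BCAT-1 (0.135). TGG2, with its wider range, ranked 2749 at 1.40. For PYK10 the nearest of 482 were the extensin gene EXT3 (0.366), AT4G22870 (0.545) and NAI2 (0.938), and NAI1 ranked 42 at 1.80. For BGLU18 the nearest of 2121 were AT1G51440 (0.362), the transcription factor gene ORA47 (0.406) and SIB1 (0.523), a sigma factor binding protein. Each likeness rests on 4 group means from the same 8 arrays.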

How the data were processed

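Feature Extraction 10.10.1.1 read the Agilent arrays (design 021169, TAIR10 grid) under protocol GE1_1010_Sep10, per the file headers. The deposited scanner files hold intensity in linear units, background-subtracted and detrended within each array, beside scanner flags (outlier, well above background), which are of another kind than signals. The deposited value table holds intensity equal to the processed signal times 1 factor per array and served as an alternative.

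Outlier spots were left out, repeated spots averaged, log2 taken and the 75th percentile of each array's non-control probes subtracted. Probes were named through RefSeq accessions in a gene table of assembly TAIR10.1, used for names and neighbours only. Probes had to be well above background on both arrays of some group, and each locus was represented by its brightest such probe. With R 4.3.3 and limma 3.58.1, lmFit and eBayes were run on all 8 arrays at once (2-sided, Benjamini-Hochberg adjustment, threshold 0.05), and the same fit was tested on simulated data. The small number of arrays limits the precision, with a median SE of 0.11. The labels call the replicates biological. Slide 1 holds the 2-day and aerial arrays and slide 2 the leaf arrays, so both main comparisons lie within a slide. Alternatives changed the background correction, scaling, filter, probe choice, source of values, arrays in the fit, replicate block, variance model, size of change and each array in turn.

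The genes, lists and tests were chosen with earlier results of these data known. The genes named from each list are the 4 largest called differences detected on all arrays compared, the largest bound each way, and 19 always named. List genes named only as members of a count of 10 or 4 above the leaves fall outside this rule.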

Additional observations from a re-analysis of the deposited data

How the results depend on the processing

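Requiring a difference of at least 2-fold besides the limma call left 7465 of 15494 genes in the aerial part against the 2-day plants and 6640 of 14705 in mature against young leaves. Leaving out 1 array at a time gave 13707 to 15482 and 12832 to 14825 calls over all genes, and 65 to 75 and 52 to 64 over the 84 list genes, beside 74 and 59 with all arrays. Within each slide, with only the arrays compared, 14830 and 14356 genes were called. Slide as a block was not run, because it is aliased with the groups and leaves both contrasts as they are. The labels give same-numbered replicates nothing in common but the number. Their deviations correlated at -0.06, -0.01 and -0.02 between the 2-day plants and the aerial part, young and mature leaves, and at 0.35, 0.31 and 0.25 between aerial and young, aerial and mature, and young and mature arrays, so with 2 numbers a pairing among the 21-day groups was not settled. With the replicate block the calls were 15748 and 15062 over all genes, and 76 and 59 over the list genes.

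The scaling bears on the leaf comparison most. The split of higher and lower calls there was 7386 and 7319. Normexp gave 10371 and 5921 (median of all genes 0.22), median scaling 9878 and 5672 (median 0.30), and spike-in scaling 1838 and 14442 (median -0.87). In the aerial part spike-in scaling gave 4426 higher and 9737 lower with a median of -0.35. With spike-in scaling the leaf differences of BGLU18 (-0.13), PEN2 (-0.20), TSA1 (-0.0586) and GTR2 (-0.27) changed sign. Those of NAI1 (0.17) and JAL22 (0.29) did so with normexp. Leaf differences that were not beyond the spread also crossed 0 under an alternative. Among them were PYK10 (to -0.43), BGLU22 (to 0.70), NAI2 (to 0.38) and JAL23 (to 0.11). Keeping just the probes detected on all 8 arrays left 6 of the 13 falls of other ER-body genes, since that filter drops genes undetected on any array. Over the 10 genes, the named genes and the lists, 1510 values under the alternatives stayed on the same side, 28 lost and 32 gained a call, 120 moved and 6 reversed. Those 6 are the sign changes of BGLU18, PEN2, TSA1, GTR2, NAI1 and JAL22, without the crossings of PYK10, BGLU22, NAI2 and JAL23. Dim signals limit BGLU21, BGLU22 and the 2-day level of JAL23. They also limit mature leaves for NAI1 (processed signals of 9.63 and 10.89) and JAL23 (26.8 and 19.2).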

Other observations

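In the aerial part and in young leaves, though less so in the other groups, the replicates of the 10 genes leaned to the same side. Replicate 1 was the higher array for 9 of the 10 genes in the aerial part and for 8 in young leaves, against 49.1% and 48.2% of all genes tested. In the aerial part the exception was PEN2, and in young leaves the exceptions were PEN2 and BGLU21. In the 2-day plants and in mature leaves replicate 1 was higher for 3 and 4 genes, against 51.2% and 55.1% of all genes. The median SD between replicates was 0.32 for the 10 genes in young leaves and 0.06 for all genes, and 0.17 against 0.07 in the aerial part. It was 0.13 against 0.09 in the 2-day plants and 0.13 against 0.08 in mature leaves. Replicate 1 minus replicate 2 in young leaves was 1.18 for JAL23 and 0.50 for PYK10. It was -1.71 for BGLU21 and 0.53 for BGLU22, which were not well above background there. The cause was not tested.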
